A study of Mus musculus with 10 samples.

Results

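Oxidative phosphorylation is the last stage of respiration, in which mitochondria turn the electrons of nutrients into ATP, and its nuclear-encoded subunits are described here in the mouse terminal ileum after weight-loss surgery. Genes were taken by symbol: all that begin with Ndufa, Ndufb, Ndufc, Ndufs, Ndufv, Uqcr, Atp5, Cox4i, Cox5, Cox6, Cox7 or Cox8, plus Sdha to Sdhd, without the Ndufaf assembly factors and pseudogene symbols. The rule found 87 of the 36401 genes in the files: 39 of complex I, 4 of complex II, 8 of complex III, 18 of complex IV and 18 of complex V. Of these, 81 passed a filter on low counts, as did 15678 genes in all. The symbols also bring in a few genes that are not fixed subunits. Atp5s and Atp5sl carry the prefix but are not subunits of the ATP synthase, and Ndufa4, counted with complex I by its symbol, is now known as a component of complex IV.

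The study compared 5 RNA-seq libraries of mice after vertical sleeve gastrectomy (VSG), which removes most of the stomach, with 5 of sham-operated, pair-fed controls (SPF). All were male C57Bl6 mice made obese on a diet with 60 kcal % fat, given for 6 weeks before surgery, with an age at surgery of 8 weeks per the labels. VSG mice ate freely after surgery, so the groups differ in surgery and in the way food was given. Both groups received liquid Osmolite around the time of surgery. About 8 weeks later all mice were fasted overnight, gavaged with 0.5 mL of Osmolite liquid diet, and killed after 1 hour for the terminal ileum. The tissue was whole ileum, so fewer cells of a type and less RNA per cell cannot be told apart.

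Complex I (NADH dehydrogenase) and complex II (succinate dehydrogenase) feed electrons to ubiquinone, complex III passes them to cytochrome c, and complex IV (cytochrome c oxidase) passes them to oxygen. Complex V, the ATP synthase, uses the proton gradient that complexes I, III and IV build. In the small intestine this machinery supports the active uptake of nutrients by enterocytes and the contraction of the muscle wall. A small number of subunits are encoded by mitochondrial DNA. The symbols searched for the 13 mitochondrially encoded genes matched no gene in these data, so these genes were not analysed here.

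The libraries held between 15364651 (VSG 3) and 34058181 (SPF 5) estimated reads. Between 1.25% (SPF 1) and 2.16% (SPF 4) of these fell on the 87 genes, and the mean share was 1.46% ± 0.11 in VSG, against 1.62% ± 0.37 in SPF (SD, n = 5 each). VSG 2, SPF 2 and SPF 4 stood apart in most of their gut region markers. In these 3 libraries the summed level of 8 upper small intestine genes was 2803 to 3235 CPM (counts scaled to library size), against 65.8 to 150 in the other 7, and that of 6 ileal genes was 402 to 587 against 4324 to 9321. Lct and Adh6a made up most of the first sum there, and Gata4, Gip and Onecut2 were also higher there. Slc40a1 of that list went the other way, at 7.22, 3.68 and 13.6 CPM, against 35.8 to 98.3 CPM in the other 7. Cybrd1 was at 3.58 to 7.05 CPM over all libraries, and Pdx1 was raised in SPF 4 alone, at 14.5 CPM. The counts that the results turn on are therefore also given without these 3 libraries.

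No oxidative phosphorylation gene passed the threshold between VSG and SPF in edgeR's quasi-likelihood test with Benjamini-Hochberg adjustment over all genes. Of the 81 genes, 0 were called at an adjusted p under 0.05, and 0 had an unadjusted p under 0.05. Over all 15678 genes the shares were 0% (0 genes) and 3.8% (595 genes). DESeq2 called 11 genes of all those tested, and 0 of the 81. The lowest adjusted p among the 81 genes was 0.977.

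The fitted values nevertheless leaned one way, with 80 of 81 genes lower in VSG, against 58.1% of all genes. The median log2 fold change of the 81 genes was -0.12, and that of all genes tested was -0.05. By complex the medians were -0.13 for complex I (38 genes), -0.13 for complex II (4 genes), -0.09 for complex III (8 genes), -0.10 for complex IV (14 genes) and -0.16 for complex V (17 genes). The groups overlapped for every one of the 81 genes, whereas 0.549% of all genes had groups that did not overlap. The lean rested on single sham libraries: without SPF 3 the median was 0.025, with 28 genes lower and 53 higher, and without SPF 4 it was -0.02, with 52 lower and 29 higher. In both of these fits the median of all genes was -0.03. Without VSG 2, SPF 2 and SPF 4 together the members' median was -0.06, with 62 lower and 19 higher. All genes then had a median of -0.05, with 56.8% lower. The members' median less that of all genes was thus -0.014, against -0.077 with all libraries.

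**Figure D1:**
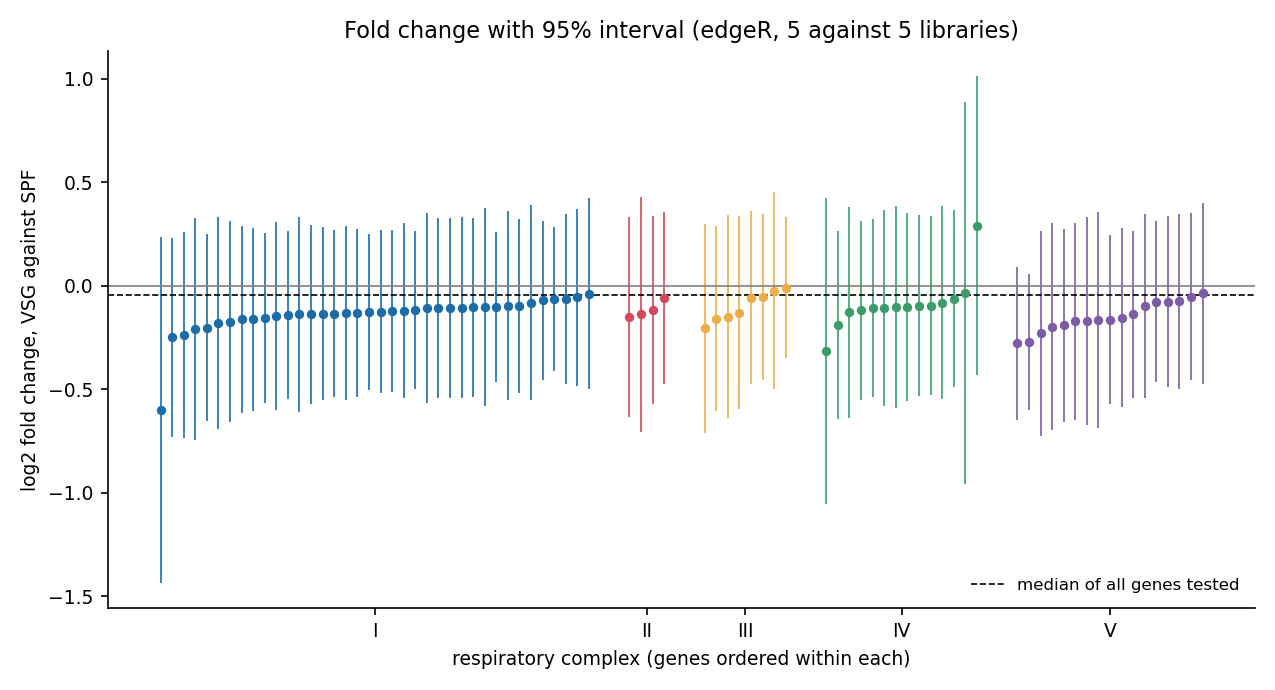
Log2 fold change of VSG against SPF for the 81 genes, ordered within each complex, with 95% intervals from edgeR (5 against 5 libraries); the dashed line is the median of all genes tested, -0.05. All intervals span 0, and 1 gene, Cox6b2, has a value above 0.

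Beyond the comparison of means, these genes moved together between libraries, and more widely among the sham than the VSG libraries. After centring each gene on its mean over the 10 libraries, the median log2 deviation of the 81 genes was -0.05, 0.04, -0.02, -0.12 and -0.06 in VSG 1 to 5. In SPF 1 to 5 it was -0.46, -0.06, 0.57, 0.41 and -0.25. The VSG libraries thus lay close together, inside the range of the SPF libraries. SPF 1 held the lowest value of 75 of the 81 genes, against 8.08% of all genes. SPF 3 held the highest of 55 and SPF 4 the highest of 25, against 22.9% and 13.1% of all genes. SPF 3 also held the lowest value of 24.3% of all genes, but of 1 of the 81. These ranks rest on TMM scaling, with a factor of 0.89 in SPF 3 and 1.07 in SPF 4. As an unscaled share of counts the 87 genes had 1.85% in SPF 3 and 2.16% in SPF 4. Ranks and spread were not computed under another scaling. The SD of log2 CPM was larger in SPF than in VSG for 81 of 81 genes, against 73.5% of all genes. Its median over the 81 genes was 0.11 in VSG and 0.45 in SPF, and over all genes 0.27 and 0.40. Without SPF 3 the SD was larger in SPF for 77 of 81 genes, against 55.4% of all genes, and without VSG 2, SPF 2 and SPF 4 for 78, against 67.4%. Across all sets with 1 library left out the count was 77 to 81. The wider sham spread was not particular to these genes: the SD was larger in SPF for 80 of 80 cytosolic ribosomal protein genes (median 0.20 in VSG and 0.48 in SPF) and for 69 of 76 mitochondrial ribosomal protein genes (0.13 and 0.36).

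**Figure D2:**
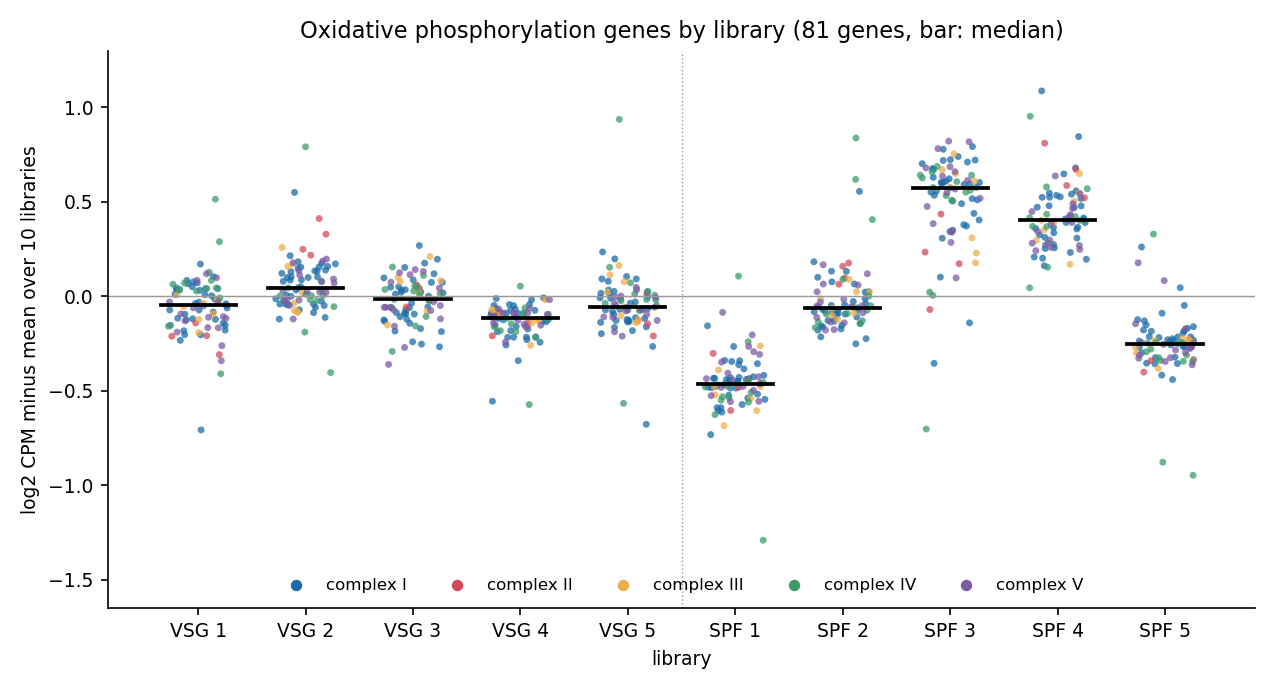
Log2 CPM minus the gene's mean over the 10 libraries for the 81 genes (points, coloured by complex) in each library, with the median as a bar. The VSG medians lie between -0.12 and 0.04, and the SPF medians run from -0.46 in SPF 1 to 0.57 in SPF 3.

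For 60 of the 81 genes, Pearson's r with the median of the other members over the 10 libraries was above 0.9. Of the 15597 other genes tested, 0.769% correlated with the members' median to that degree. No other list was correlated with its own median, so whether 60 of 81 is unusual for a set of related genes was not tested. Without SPF 3 the count was 55 genes, against 0.603% of the others, and without VSG 2, SPF 2 and SPF 4 it was 65, against 4.27% over 7 libraries. These correlations are descriptions: the points share libraries, depth and composition, and many of these transcripts are alike in length. The complex III gene Uqcr11, which encodes a small accessory subunit, had the highest r, 0.996. The members that followed the rest least were Cox4i2 (r = -0.21), Ndufa4l2 (0.22), Cox6b2 (0.26) and Ndufs1 (0.44). Cox4i2, Ndufa4l2 and Cox6b2 were low, at mean levels of 0.725, 0.959 and 5.07 CPM, whereas Ndufs1 was at 132 CPM. The part of counting error in the r of these low genes was not tested. By complex, the median r was 0.940 for I, 0.785 for II, 0.932 for III, 0.974 for IV and 0.954 for V. The lower median of complex II came from Sdha (0.603), Sdhd (0.766) and Sdhc (0.805), whereas Sdhb had 0.922.

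Transcript length moved with the members' deviation in several libraries. Spearman's correlation between them was -0.48 in SPF 3, 0.57 in SPF 1, 0.48 in VSG 2, -0.48 in VSG 1 and -0.36 in VSG 5. In the remaining libraries it lay between -0.09 and 0.28. Over all genes it was strongest in SPF 3, at -0.52, followed by 0.32 in SPF 1. The 81 transcripts are short, with a median of 745 bases against 2686.5 for all genes tested. In SPF 3 the other genes of up to 600 bases had a median deviation of 0.50 and those over 3200 bases one of -0.34, and the 28 oxidative phosphorylation genes of up to 600 bases had 0.64. In the 1000 to 3200 base class of SPF 3 the 28 members had 0.36 and the other genes 0.18. SPF 4 differed: its members deviated by 0.41, 0.40 and 0.42 in the 3 length classes they fill. The medians of the other genes of those classes stayed at 0.00 to 0.01. In SPF 1 the members deviated by -0.51, -0.47 and -0.41, below the other genes of the same classes at -0.14, -0.17 and -0.04. When scaling offsets were set per length class, an analysis chosen after the data were seen, the median log2 fold change was -0.06, with 75 genes lower and 6 higher. The median of all genes was then -0.03.

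**Figure D3:**
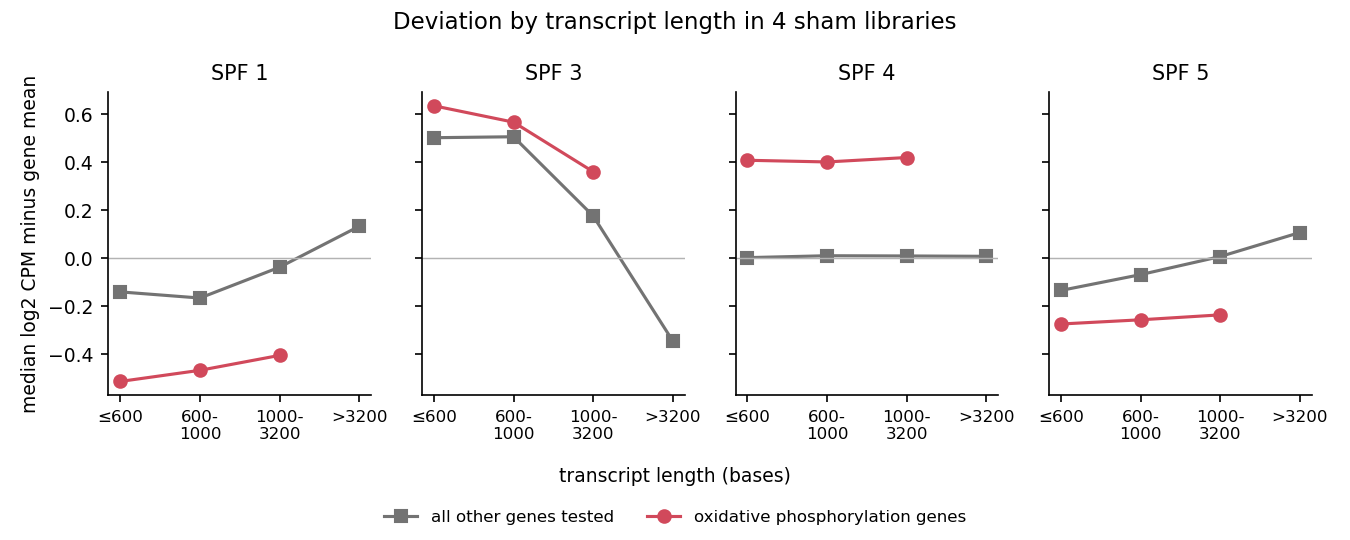
Median log2 deviation from the gene mean by class of transcript length in SPF 1, 3, 4 and 5, for the oxidative phosphorylation genes and for all other genes tested. In SPF 3 both sets decline with length. In SPF 4 the oxidative phosphorylation genes deviate by about 0.41, whereas the medians of all other genes lie at 0.00 to 0.01.

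Other lists also varied in the same libraries. The 80 cytosolic ribosomal protein genes had a median deviation of 0.88 in SPF 3 and -0.10 in SPF 4, and the 76 mitochondrial ribosomal protein genes 0.53 and 0.20. In VSG against SPF, 78 of the 80 cytosolic genes had lower fitted values (median log2 fold change -0.14) and 68 of the 76 mitochondrial ones (median -0.11). Without SPF 3 these counts were 1 and 27, and without SPF 4 they were 79 and 63. The 18 genes of the citrate cycle and pyruvate dehydrogenase, which supply the electrons, had -0.01 in SPF 3, 0.41 in SPF 4 and -0.31 in SPF 1. In SPF 4 the 11 ubiquinone synthesis genes had 0.40, 8 further subunits and carriers 0.38 and 30 assembly factors 0.20. The summed level of 10 smooth muscle genes was lowest in SPF 3, at 442 CPM, and highest in SPF 5, at 4105 CPM, with 969 to 1744 CPM in VSG. The 10 epithelial genes summed to 33262 CPM in SPF 3, and to 15911 and 16138 CPM in SPF 4 and SPF 5. In VSG they summed to 19504 to 27366 CPM. The part of tissue make-up, gut region and RNA length in the pattern was not tested.

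Complex I, the largest of the complexes, had 38 tested genes, all with lower fitted values in VSG, from -0.60 (Ndufa4l2) to -0.04 (Ndufa6). The small membrane subunit Ndufb2 had 19.9 to 26.1 CPM in VSG, and 42.1 CPM in SPF 3, 34.9 CPM in SPF 4 and no more than 23.9 CPM in the other 3 sham libraries. Its fold change was -0.25 (SE 0.22, edgeR adjusted p = 0.977), with SPF 3 and SPF 4 above all VSG libraries. Ndufa1, another small membrane subunit, had 57.5, 62.3, 52.1, 50.5 and 56.0 CPM in VSG 1 to 5 and 38.5, 66.7, 83.3, 94.2 and 45.9 CPM in SPF 1 to 5. Of its 5 sham values 3 lay above the VSG range and 2 below it (log2 fold change -0.24, SE 0.23, edgeR adjusted p = 0.977). Ndufs1, the largest core subunit, had 118 CPM in SPF 3, close to its other values, and 188 CPM in SPF 4, against 108 to 157 CPM in VSG. Ndufb8, an accessory subunit, had the smallest SD of log2 CPM in VSG among complex I genes, 0.04, at 99.0 to 105 CPM in VSG and 75.8 to 157 CPM in SPF. A second gene ID carrying the symbol Ndufb8 had 0 counts in all 10 libraries.

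Complex II is the only one that also works in the citrate cycle, and all its subunits are nuclear. Sdha, the flavoprotein, had 358, 469, 412, 369.6 and 357 CPM in VSG and 320.2, 422, 376, 593 and 335 CPM in SPF. Sdhb, the iron-sulphur subunit, had 200.2, 269.6, 223, 211 and 234 CPM in VSG and 170.4, 242, 314, 333 and 175 CPM in SPF. The groups overlapped for both genes, and SPF 4 was the highest library. The membrane anchors were also highest in SPF 4: Sdhc had 147 to 214 CPM in VSG and 122 to 271 CPM in SPF, and Sdhd 233 to 384 and 189.7 to 506 CPM. The log2 fold changes of Sdha, Sdhb, Sdhc and Sdhd were -0.06, -0.12, -0.15 and -0.14, with edgeR adjusted p between 0.977 and 0.990. Complex II was the exception in SPF 3, with a median deviation of 0.20 against 0.57 to 0.59 in the other 4 complexes, and it had 0.63 in SPF 4 and 0.29 in VSG 2. Its 4 genes, at 1142 to 3171 bases, are longer than most of the others.

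Uqcrc1, which encodes a core protein of complex III, had 352, 481, 424, 336 and 365 CPM in VSG and 280.0, 428, 498, 631 and 333 CPM in SPF, with SPF 3 and SPF 4 above the VSG range. Its partner Uqcrc2 had 295, 358, 371, 291 and 298 CPM in VSG and 267, 326, 363, 394 and 273 CPM in SPF, the closest match between the groups among the 81 genes (log2 fold change -0.01, SE 0.16, edgeR adjusted p = 0.999). Uqcr11 had 102, 107, 99.9, 96.7 and 101 CPM in VSG and 69.3, 99.2, 178, 149.5 and 88.1 CPM in SPF. Its 5 VSG libraries thus lay within a narrow band inside the sham range, with a log2 fold change of -0.21 (SE 0.23, edgeR adjusted p = 0.977). Uqcr10, a small subunit like Uqcr11, had 113 to 125 CPM in VSG and 88.6 to 197 CPM in SPF.

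Complex IV has subunits that come in tissue-specific isoforms. Per kilobase of transcript, its general isoforms were among the most abundant members, with Cox4i1 at 746, Cox6a1 at 625, Cox8a at 621 and Cox6b1 at 514 CPM per kilobase. Cox4i1, the regulatory subunit found in most tissues, had 594, 537, 488, 509 and 571 CPM in VSG and 392, 525, 839.7, 662 and 438 CPM in SPF. Cox6a1 had 356, 367, 355, 298 and 329 CPM in VSG and 224, 347, 502, 518 and 273 CPM in SPF. For both, SPF 3 and SPF 4 lay above all VSG libraries and SPF 1 and SPF 5 below them. Cox6b1 had 277 to 323 CPM in VSG and 209.8 to 483 CPM in SPF, Cox8a 309 to 355 and 245 to 499, Cox7b 210.1 to 247 and 174 to 364, and Cox7a2l, known for its part in supercomplexes, 158 to 216 and 163 to 312.

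The restricted isoforms followed the common pattern less closely than the general ones, but all except Cox7a1 were measured at low counts. Cox4i2, Ndufa4l2 and Cox6b2 had mean levels of 0.725, 0.959 and 5.07 CPM. Their general counterparts Cox4i1, Ndufa4 and Cox6b1 had 556, 206 and 318 CPM. Cox7a1, the isoform of heart and skeletal muscle, had 38.1, 87.8, 56.5, 47.6 and 50.1 CPM in VSG and 20.7, 90.7, 51.5, 98.2 and 26.2 CPM in SPF. The 3 libraries with high upper small intestine markers were its 3 highest, and its log2 fold change was -0.04 (SE 0.42, edgeR adjusted p = 0.998). Without those 3 libraries it was 0.55 (edgeR adjusted p = 0.749). Its general counterpart Cox7a2 had 185, 182, 183, 171 and 175 CPM in VSG and 124, 170.2, 286, 239.7 and 145 CPM in SPF, so that VSG 2 and SPF 2 did not stand out. A list of 8 cardiac and skeletal muscle genes summed to 58.1 to 74.6 CPM there and to 46.6 to 72.2 CPM in the other 7. Only 2 of the 8 passed the filter: Acta1, which made up most of the sum, and Ckm, at 3.14, 9.34 and 6.80 CPM in VSG 2, SPF 2 and SPF 4 and 1.06 to 12.8 CPM in the other 7. Mb, which encodes myoglobin, was at 0 in VSG 2 and SPF 4 and at 0.065 CPM in SPF 2. The part of muscle RNA in the level of Cox7a1 was not tested.

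Cox6b2, known as the testis isoform, was the single member with a higher fitted value in VSG, at 5.82, 3.57, 5.13, 4.18 and 9.16 CPM against 3.25, 7.34, 4.76, 4.90 and 2.55 CPM in SPF (log2 fold change 0.29, SE 0.33, edgeR adjusted p = 0.977). The groups overlapped, and VSG 5 was the highest library. Cox4i2, the isoform of lung and of oxygen-sensing cells, was at 0.438 to 1.02 CPM in VSG and 0.394 to 1.06 CPM in SPF. Ndufa4l2, a hypoxia-inducible relative of Ndufa4 that also marks pericytes, was at 0.508 to 1.32 CPM in VSG and 0.669 to 1.95 CPM in SPF. Its log2 fold change, -0.60 (SE 0.38, edgeR adjusted p = 0.977), was the most negative of the 81. Ndufa4 itself had 169.9 to 226 CPM in VSG and 134 to 297 CPM in SPF. A list of 7 pericyte and endothelial genes summed to 80.4 CPM in SPF 3 and to 157 to 318 CPM in the other 9 libraries.

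**Figure D4:**
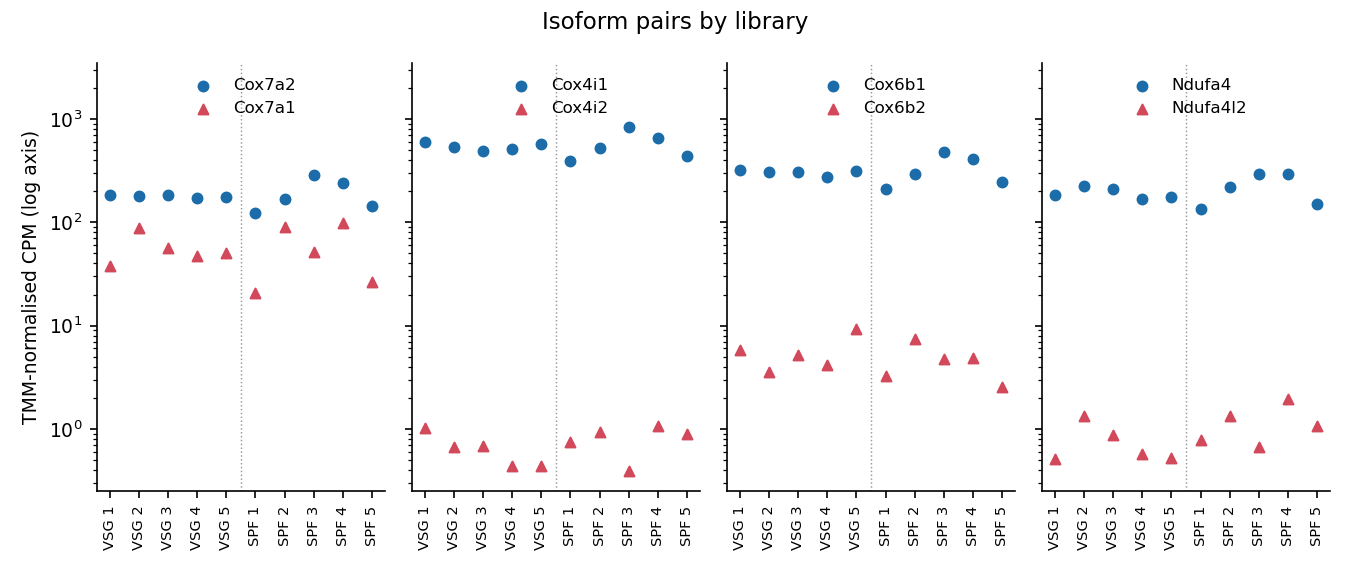
CPM on a log axis in each of the 10 libraries for 4 pairs of a general (circles) and a restricted (triangles) isoform. Cox7a1 is highest in VSG 2, SPF 2 and SPF 4, where Cox7a2 shows no common shift, and Cox4i2 and Ndufa4l2 stay near 1 CPM.

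The balance between isoforms was tested by exact permutation, two-sided, of the group labels (252 ways, so that p cannot fall below 0.0079). The 6 pairs were chosen after the data were seen. None of the 6 passed after adjustment. The log2 ratio of Cox7a1 to Cox7a2 was -1.73 ± 0.44 in VSG, against -1.94 ± 0.78 in SPF (SD, n = 5 each, exact permutation p = 0.587, adjusted 0.881). That of Ndufa4l2 to Ndufa4 was -7.93 ± 0.38 and -7.48 ± 0.65 (SD, n = 5 each, exact permutation p = 0.206, adjusted 0.881). The ratios of Cox4i2 to Cox4i1, Cox6b2 to Cox6b1, and Atp5g1 and Atp5g2 to Atp5g3 had exact permutation p between 0.310 and 0.976.

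Several isoforms were at or near the limit of detection. Cox7b2 and Cox8c had 0 counts in all 10 libraries, which at 3 counts allows up to 0.0780 to 0.203 CPM in a library, counting error only. Cox6a2, the muscle isoform of Cox6a1, had 0 to 14 counts, Cox8b 0 to 11 and Atp5l2 0 to 1.98 estimated counts per library. None of these 5 genes passed the filter, and no fold change is given for them.

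Complex V had the highest levels per length, with a median of 332 CPM per kilobase, against 280 for complex IV, 270 for III, 173 for II and 86.9 for I. Atp5b, the catalytic beta subunit, had 1429, 1769.7, 1648, 1407 and 1450.3 CPM in VSG and 1276, 1630.0, 1986, 1924 and 1301 CPM in SPF, and stood first among members per kilobase of transcript at 826. Atp5a1, the alpha subunit, had 1112, 1421, 1361, 1143 and 1155 CPM in VSG and 1038, 1356, 1336, 1636 and 1053 CPM in SPF. The groups overlapped for both, with log2 fold changes of -0.08 (SE 0.19) and -0.05 (SE 0.18) and edgeR adjusted p of 0.985 and 0.991. The 3 Atp5g genes encode the same mature subunit c, the ring that turns in the membrane, behind different import sequences. Atp5g3 was the most abundant of these per kilobase, at 742, against 371 for Atp5g2 and 316 for Atp5g1. Atp5g1 had 159.9, 197, 197, 154 and 158 CPM in VSG and 132, 161, 294, 266 and 162 CPM in SPF (log2 fold change -0.23, SE 0.23, edgeR adjusted p = 0.977). Atp5g2 had 148 to 170.1 CPM in VSG and 129.6 to 257 CPM in SPF, and Atp5g3 431 to 593 and 359 to 804 CPM. SPF 3 was the highest library for Atp5g1 and Atp5g2, and SPF 4 for Atp5g3.

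The lowest p-values of all 81 genes belonged to the pair that are not subunits of the synthase. Atp5sl, also known as Dmac2 and involved in complex I assembly, had 30.0, 35.4, 26.2, 31.2 and 32.0 CPM in VSG and 29.2, 30.5, 42.6, 46.5 and 38.1 CPM in SPF. Its log2 fold change was -0.27 (SE 0.15, edgeR adjusted p = 0.977). Atp5s had 4.88 to 6.83 CPM in VSG and 5.85 to 8.66 CPM in SPF, with a log2 fold change of -0.28 (SE 0.17, edgeR adjusted p = 0.977). For both genes all VSG libraries lay below the mean of the SPF libraries, and the groups still overlapped. The same held for many other members, among them Ndufb2, Uqcr11 and Cox7a2.

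Promoters of some isoform family genes are shown as a description. Cox7a1 had r = 0.620 with the median of the other members, against 0.990 for Cox7a2 and 0.972 for Cox6a1. The 3 Atp5g genes that make one protein differed less, with 0.952 for Atp5g1, 0.906 for Atp5g2 and 0.853 for Atp5g3. A link between promoter sequence and the common pattern was not tested. The sequences are the 250 bases before the annotated start, 5′ to 3′ on the gene's strand, from RefSeq on GRCm38.p6, with matches to the searched motifs in capitals.
Cox7a1, chr7:30183921-30184170, plus strand: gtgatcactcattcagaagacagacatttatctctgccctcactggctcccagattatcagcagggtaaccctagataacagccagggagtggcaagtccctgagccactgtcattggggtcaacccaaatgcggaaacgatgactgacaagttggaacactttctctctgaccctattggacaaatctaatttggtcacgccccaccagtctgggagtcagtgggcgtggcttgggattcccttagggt
Cox7a2, chr9:79759854-79760103, minus strand: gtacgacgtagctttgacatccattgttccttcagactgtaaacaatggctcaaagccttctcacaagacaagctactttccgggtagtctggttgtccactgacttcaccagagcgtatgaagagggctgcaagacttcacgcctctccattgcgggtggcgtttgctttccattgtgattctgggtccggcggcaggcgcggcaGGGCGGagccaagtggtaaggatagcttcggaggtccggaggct
Cox6a1, chr5:115348959-115349208, minus strand: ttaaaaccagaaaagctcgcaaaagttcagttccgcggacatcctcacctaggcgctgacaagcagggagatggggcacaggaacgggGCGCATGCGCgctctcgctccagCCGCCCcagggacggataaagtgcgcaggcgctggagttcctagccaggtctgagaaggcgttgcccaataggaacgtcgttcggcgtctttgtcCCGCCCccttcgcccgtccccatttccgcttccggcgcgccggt
Atp5g1, chr11:96075632-96075881, minus strand: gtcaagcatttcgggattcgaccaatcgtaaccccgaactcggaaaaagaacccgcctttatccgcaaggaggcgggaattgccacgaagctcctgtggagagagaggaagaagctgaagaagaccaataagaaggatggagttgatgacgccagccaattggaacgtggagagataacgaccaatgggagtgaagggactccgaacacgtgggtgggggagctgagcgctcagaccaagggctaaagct
Atp5g2, chr15:102671048-102671297, minus strand: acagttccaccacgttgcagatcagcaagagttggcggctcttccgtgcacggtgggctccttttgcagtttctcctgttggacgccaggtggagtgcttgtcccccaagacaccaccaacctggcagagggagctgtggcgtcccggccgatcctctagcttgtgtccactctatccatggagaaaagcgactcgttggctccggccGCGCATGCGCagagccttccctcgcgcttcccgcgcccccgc
Atp5g3, chr2:73911327-73911576, minus strand: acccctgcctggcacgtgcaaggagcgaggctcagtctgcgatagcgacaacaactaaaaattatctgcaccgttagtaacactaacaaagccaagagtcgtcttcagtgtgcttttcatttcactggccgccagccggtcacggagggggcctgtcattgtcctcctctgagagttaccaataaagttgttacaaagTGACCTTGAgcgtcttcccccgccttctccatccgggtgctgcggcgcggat

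In these windows the capitals of Cox6a1 and Atp5g2 at GCGCATGCGC hold the NRF1 motif GCGCATGCG on both strands, those of Cox7a2 and the remaining ones of Cox6a1 hold the SP1 motif GGGCGG or its reverse complement, and those of Atp5g3 hold the ERR motif TCAAGGTCA in reverse complement. Cox7a1 and Atp5g1 held no match. The Cox7a1 window had 4 CpG dinucleotides and that of Cox7a2 14, and those of Cox6a1, Atp5g1, Atp5g2 and Atp5g3 had 26, 15, 19 and 15. NRF1, ERR and YY1 are factors known from the regulation of respiratory chain genes.

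Over the 300 bases from 250 before to 50 after the start, promoters were matched by symbol for 71 of the 87 gene IDs, which stand for 70 symbols. On either strand the NRF1 motif GCGCATGCG was found in 8 of the 70 (11.4%), against 1.95% of all 27025 genes with a promoter and 3.56% of the 11740 of these that passed the filter. The YY1 motif AAGATGGCG was in 8 of 70 (11.4%), against 1.64% and 3.12%, of which 5 were in complex I (Ndufa9, Ndufc1, Ndufs4, Ndufs6 and Ndufs7) and 3 in complex V (Atp5j, Atp5j2 and Atp5sl). The ERR motif TCAAGGTCA was in 2 of 70 (2.86%), Sdhd and Atp5g3, against 0.47% and 0.33%. The ETS motif CCGGAAGT was in 7.14% of the 70, against 4.31% and 8.07%. The SP1 motif GGGCGG was in 41.4%, against 38.2% and 64.8%, and the TATA motif TATAAA in 10%, against 15.7% and 9.92%. The SP1 share of these genes was thus below that of the genes that passed the filter. Of their 76 windows 94.7% had 10 or more CpG dinucleotides, against 72.7% of the windows of genes that passed. The median count was 19 in both sets of windows, and the median GC content was 57.5% against 60.0%. Such matches describe the letters of these windows and do not show that a factor binds.

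Further genes of respiration that the symbol rule leaves out were read from lists, with 0 called by edgeR in each, beside 58.1% of all genes lower in VSG. Of 8 further subunits and carriers 7 had lower fitted values in VSG (median log2 fold change -0.09), and Cycs, cytochrome c itself, was the exception at 0.10 (SE 0.18, edgeR adjusted p = 0.983). Without SPF 3, and likewise without SPF 4, 4 of the 8 were lower. Of 30 assembly factors 24 were lower (median -0.09), but 17 without SPF 3 and 19 without SPF 4. Of 11 ubiquinone synthesis genes 9 were lower (median -0.10), and 8 and 6 without those libraries. Of 15 regulators of mitochondrial biogenesis 12 were lower (median -0.13), and 12 and 11 without those libraries. Tfam, which packages mitochondrial DNA, had 28.8 to 41.3 CPM in VSG and 35.8 to 47.5 CPM in SPF. The library medians of the biogenesis regulators lay between -0.11 in VSG 4 and 0.16 in SPF 4, against -0.46 to 0.57 for the subunits. Of 18 genes of the citrate cycle and pyruvate dehydrogenase 12 were lower (66.7%, median -0.04), 12 without SPF 3 and 5 without SPF 4. Cs, citrate synthase, was at 994 ± 140.0 CPM in VSG and 796 ± 197 CPM in SPF (SD, n = 5, log2 fold change 0.32, edgeR adjusted p = 0.977).

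The choice of scaling, filter or test moved the size of the lean more than its direction. With limma on the deposited log2 values it was -0.06, with 69 genes lower and 12 higher, beside a median of -0.001 over all genes. With library totals it was -0.17, beside a median of -0.11 over all genes. With the mean of the 7 upper small intestine genes that passed the filter as a covariate it was -0.07, with 71 lower and 10 higher. The median of all genes was then -0.04. That mean includes Slc40a1, which went against the other markers.

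**Figure D5:**
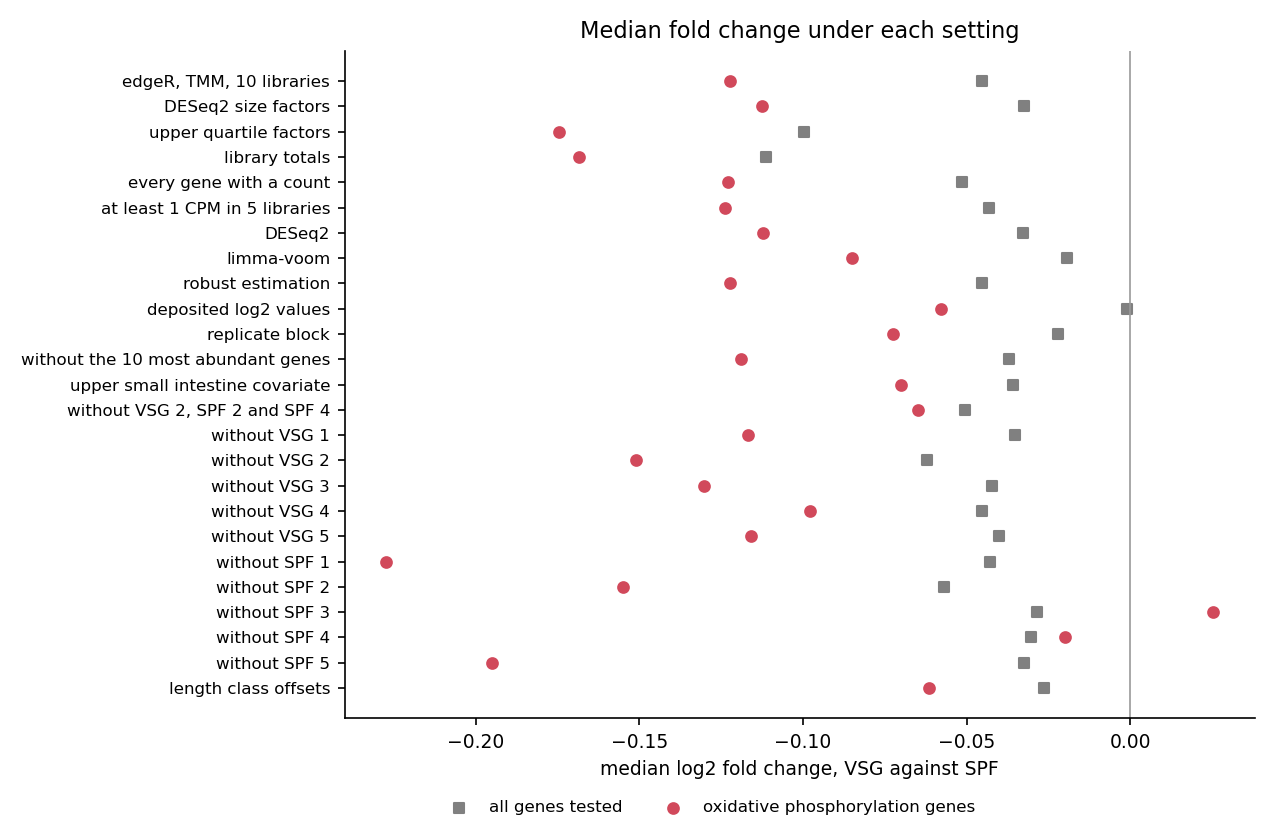
Median log2 fold change of VSG against SPF for the oxidative phosphorylation genes (circles) and for all genes tested (squares) under each setting, 1 per line. The members' median runs from -0.23 without SPF 1 to 0.025 without SPF 3, the single setting shown in which it lies above 0.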

How the data were processed

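RNA of the terminal ileum from VSG and SPF mice, in 5 libraries each, was sequenced as single-end reads with TruSeq RNA libraries, per the labels' protocols. Per library, the authors deposited estimated counts (in files named for RPKM, though the values sum to read totals) and log2 values, which are the log2 of the same counts after a library factor, less the median of the sham libraries. The submitters' processing notes name DESeq and mm9. Not given in the sources used here are the aligner and the use of strand, so overlapping antisense genes and near-identical copies, such as processed pseudogenes of these short genes, cannot be told apart.

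Estimated counts were rounded and tested with edgeR 4.0.16 in R 4.3.3 (filterByExpr, TMM, quasi-likelihood test, surgery the sole term, Benjamini-Hochberg over 15678 genes, threshold 0.05). Normalised CPM rest on TMM factors and their log2 on a prior count of 2. Intervals are at the 95% level. DESeq2 1.42.0 and limma 3.58.1 served as alternatives, with other scalings and filters and with each library left out. On simulated counts over 15504 genes with 5 libraries a group, the test recovered 29% of 100 genes changed 2-fold and 84% of 100 changed 4-fold. Nothing in the labels states that each library comes from a separate mouse, so p-values measure only the spread between these samples, which may be technical.

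Transcript lengths are those of the shortest principal coding transcript in GENCODE M21, found for 95.8% of the genes tested. That choice and the length classes were made after the data were seen, because median lengths took in isoforms with long ends. Promoters are from RefSeq on GRCm38.p6, while the files are on mm9, so the coordinates belong to the promoter table only. The members and all lists were chosen with earlier results of these data known. Genes named are, per complex, the 3 with the lowest p and the 2 with the highest mean CPM, all of complex II and all isoform families. A gene that this rule takes is not reported here. Up to 3 genes of each other list were eligible by lowest p. Ndufs1, Ndufa6 and Ndufb8 were named after their values were seen.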

Additional observations from a re-analysis of the deposited data

Results flagged for a closer look

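The log2 ratio of Cox4i2 to Cox4i1 was -10.80 in SPF 3, far from the other 4 sham libraries at -9.19 to -8.84. The log2 ratio of Ndufa4l2 to Ndufa4 was -8.64 in SPF 3, against -7.29 to -7.03 in the other 4. These are 2 of 82 groups checked for a library far from the rest, and chance gives about 1 in 20. Cox4i2 and Ndufa4l2 were near 1 CPM in all libraries, and SPF 3 also had the lowest summed level of pericyte and endothelial genes, 80.4 CPM. The part of that sum in both ratios was not tested.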

How the results depend on the processing

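Members called were 0 in each setting run, of scaling, filter, test, values, covariate and libraries, and genes called over all genes moved to 11 with DESeq2. With each library left out, the number of members with a lower value ranged from 28 to 80 and their median log2 fold change from -0.23 to 0.025. Same-numbered libraries were not clearly alike over all genes (r 0.04, 0.18, -0.05, -0.32 and -0.07). A shared effect smaller than the other differences between libraries would not show in this check, so pairing is not excluded. A replicate block gave a median of -0.07, with 75 lower, beside -0.02 over all genes. At most 1 member had an unadjusted p under 0.05 in any of these settings. With DESeq2 size factors the sign changed for Uqcrc2 at 0.0025. With DESeq2 the sign changed for Uqcrc2 at 0.0026. With limma-voom the sign changed for Cox7a1 at 0.17. With the deposited log2 values the sign changed for Uqcrc2 at 0.018 and Cox7a1 at 0.19. With the replicate block the sign changed for Uqcrc2 at 0.00044 and Cox7a1 at 0.18. With the upper small intestine covariate the sign changed for Sdha at 0.064, Sdhd at 0.042, Uqcrc2 at 0.048, Cox7a1 at 0.38 and Atp5a1 at 0.030. With VSG 2, SPF 2 and SPF 4 left out the sign changed for Sdha at 0.12, Sdhc at 0.017, Sdhd at 0.077, Uqcrc2 at 0.062, Cox6a1 at 0.0081, Cox7a1 at 0.55, Atp5a1 at 0.064 and Atp5g3 at 0.0032. With length class offsets, added after the data were seen, the sign changed for Uqcrc2 at 0.027. With each library left out, the log2 fold changes of the named genes that changed sign ranged as follows: Uqcrc2 -0.066 to 0.079, Cox7a1 -0.26 to 0.26, Uqcr10 -0.28 to 0.031, Uqcr11 -0.34 to 0.0071, Cox4i1 -0.19 to 0.11, Cox6a1 -0.26 to 0.024, Cox6b1 -0.23 to 0.085, Cox7a2 -0.23 to 0.089, Cox7a2l -0.19 to 0.088, Cox8a -0.20 to 0.070, Atp5b -0.15 to 0.016, Atp5g2 -0.25 to 0.032, Sdha -0.13 to 0.12, Sdhb -0.22 to 0.020, Sdhc -0.26 to 0.040, Sdhd -0.27 to 0.11, Uqcrc1 -0.27 to 0.032, Atp5a1 -0.11 to 0.061 and Atp5g3 -0.29 to 0.0018. Leaving out SPF 3 and leaving out SPF 4 each changed the sign of 11 of the 29 named genes. The cause was not tested. Depth limits the result for Cox4i2 and Ndufa4l2, near 1 CPM, and for the 6 genes below the filter.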
